A study of Mus musculus with 6 samples.

Results

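Mitochondrial DNA (mtDNA) is read, copied and relieved of its spent RNA by proteins that are all encoded in the nucleus. The 10 genes described here encode such factors. *Tfam*, *Polrmt*, *Tfb2m* and *Tefm* serve transcription of mtDNA, *Lrpprc* and *Slirp* keep mitochondrial mRNA stable, *Polg* and *Ssbp1* serve replication, and *Pnpt1* and *Supv3l1* serve RNA decay. They were chosen by symbol from a raw count table of 54532 genes, and 10 of 10 passed the filter on low counts, which left 19372 genes. They were set beside the 13 protein genes of mtDNA, whose symbols begin with mt-, to ask whether the messages of these factors moved with the mitochondrial messages in hearts without *Smyd1*.

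The hearts were taken at E9.5 and sequenced singly by RNA-seq, 3 of *Smyd1-KO* and 3 of WT genotype, so that each library stands for the heart of an individual embryo. *Smyd1* encodes a muscle-restricted lysine methyltransferase. The *Smyd1-KO* embryos are homozygous for a germline null allele kept as a *Smyd1*+/- stock, so every cell carries it from the start of development. No agent was given, and the WT embryos carry no *Smyd1* allele change. The RNA was selected with oligo-dT, which enriches RNA with a poly A tail. Counts also fell on the rRNA and tRNA genes of mtDNA, as given below, and differences in capture between the genotypes were not tested.

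Total counts per heart ran from 48627825 to 64217529, with *Smyd1-KO* heart 1 the shallowest. Values per heart are CPM, the counts of a gene scaled to the same total in every library, with edgeR's TMM factors applied, which lay between 0.979 and 1.04. *Smyd1* itself stood at 414, 379 and 270 CPM in WT hearts 1 to 3 and at 101, 222 and 206 CPM in *Smyd1-KO* hearts 1 to 3, without overlap, at a log2 fold change of -1.01 (SE 0.30) and an edgeR adjusted *P* of 0.0973. Which exons the allele alters is not given in the sources used here, so the counts left in *Smyd1-KO* hearts do not test the labels. The 10 cardiomyocyte markers were all detected. Their summed level was 5982 CPM in *Smyd1-KO* heart 1 and 8641 CPM in WT heart 3, against 12722 to 13582 CPM in the other 4 hearts, so 1 heart of each genotype stood apart. The 8 erythroid markers summed to between 721 and 945 CPM in WT hearts and between 27.3 and 274 CPM in *Smyd1-KO* hearts. All 8 were lower in mean, with a median log2 fold change of -2.34. Of these 8, edgeR called 2 lower, against 1.42% of all tested genes, DESeq2 called 5 lower, and 7 had an unadjusted *P* under 0.05. The 6 epicardial markers summed to 122, 106 and 129 CPM in WT hearts 1 to 3 and 141, 205 and 266 CPM in *Smyd1-KO* hearts 1 to 3, without overlap, with 6 of 6 positive and a median log2 fold change of 0.47. Of these 6, edgeR called 0 and DESeq2 called 2, and 2 had an unadjusted *P* under 0.05. The 8 endothelial and endocardial markers summed to 690, 731 and 603 CPM in WT and 609, 718 and 930 CPM in *Smyd1-KO* hearts, with overlap. Single members went both ways, 4 positive and 4 negative. Of these 8, edgeR called 0, and 2 higher and 2 lower had an unadjusted *P* under 0.05. DESeq2 called *Kdr* higher (log2 fold change 0.71, adjusted *P* 0.0022) and *Nfatc1* (-0.83, 0.0037) and *Npr3* (-0.51, 0.0094) lower. Over all genes, DESeq2 called 8.99%, and 25.1% had an edgeR unadjusted *P* under 0.05. The part that these differences in cell content play in the values below was not tested, and in bulk hearts fewer cells of a type and less RNA per cell cannot be told apart.

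mtDNA is a small circle present in many copies per cell. POLRMT, the single-subunit mitochondrial RNA polymerase, is placed on a promoter by TFAM and TFB2M and made processive by TEFM, and it copies almost the whole length of either strand as 1 long transcript. Enzymes cut that transcript at its tRNAs, LRPPRC with SLIRP shields the released mRNAs, and the helicase SUPV3L1 with the nuclease PNPT1 removes spent RNA. In the growing heart mtDNA supplies core subunits of the respiratory chain, and all of its other needs are met by imported proteins such as these.

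The nuclear genes of this machinery are known for promoters that carry sites for ETS-family factors, which bind a CCGGAAG core, and for NRF1. A search of both strands, from 250 bases before to 50 bases after the RefSeq start site (GRCm38.p6), found CCGGAAG at 6 of the 10 factors, against 8.86% of 32851 mouse promoters of the same length. The NRF1 core GCGCATGC was found at *Polrmt* and *Tfb2m*, 2 of 10, against 2.71% of promoters. Because the factors were picked by function, these shares are a description of their letters and not a test, and a match is not evidence of binding. The 100 bases just upstream of 3 start sites are shown: *Polrmt*, the factor with the widest gap between genotypes, *Slirp*, which had the most matches, and *Pnpt1*, which had none in its window. Capitals mark CCGGAAG or its reverse complement CTTCCGG.
Polrmt promoter, chr10:79746582-79746681, minus strand: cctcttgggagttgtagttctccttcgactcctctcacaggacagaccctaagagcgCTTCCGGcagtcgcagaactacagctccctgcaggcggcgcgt
Slirp promoter, chr12:87443796-87443895, plus strand: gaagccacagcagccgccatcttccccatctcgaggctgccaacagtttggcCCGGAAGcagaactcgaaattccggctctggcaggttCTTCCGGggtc
Pnpt1 promoter, chr11:29130644-29130743, plus strand: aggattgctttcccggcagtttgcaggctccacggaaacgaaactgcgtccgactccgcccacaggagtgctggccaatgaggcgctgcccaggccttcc
The *Polrmt* match begins 43 bases before the start site, and its NRF1 core lies farther upstream, at 133 bases. *Slirp* holds CCGGAAG at 48 bases before the start, and the reverse complement at 11 and, outside the stretch shown, at 146 bases. The same core stood 47 bases before the start in *Tfam* and in *Ssbp1*, 38 bases before it in *Polg* and 9 bases before it in *Tefm*. *Tfb2m*, *Lrpprc*, *Pnpt1* and *Supv3l1* had no match to CCGGAAG.

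None of the 10 factors was called different between *Smyd1-KO* and WT hearts, while 8 of the 13 mt- protein genes were called lower. A call here needed an adjusted *P* under 0.05 by edgeR's quasi-likelihood test and a log2 fold change of 0.5 or more in either direction. Over all tested genes 4.28% were called, 1.42% lower and 2.86% higher, so a count of 0 among 10 is near the background and is no result about the factors as a group. With no limit on the fold change the count stayed at 0 of 10, against 5.33% of all genes. At an unadjusted *P* under 0.05 it was 2, *Polrmt* and *Pnpt1*, both lower, against 25.1% of all tested genes, so that count too is no more than the background. DESeq2, which called 8.99% of its 19442 genes under the same thresholds, called 0 of the 10 factors.

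The factors' log2 fold changes, *Smyd1-KO* over WT, ran from -0.33 to 0.09 with a median of -0.07, and 8 of 10 were smaller than 0.25 in either direction. The median over all tested genes was -0.00, and 9741 of 19372 were smaller than 0.25. For 4 factors, *Polrmt*, *Tfb2m*, *Polg* and *Pnpt1*, all *Smyd1-KO* hearts lay below all WT hearts, and for the other 6 the hearts overlapped. Over all genes 31.3% did not overlap in either direction. The 95% interval of the fold change lay within 0.5 of 0 for 7 factors, and reached past -0.5 for *Polrmt*, *Pnpt1* and *Slirp*. The intervals are per gene and not adjusted for the number of genes. The *P*-values set the difference between genotypes against the variation between hearts, and litter and batch are not given in the labels.

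**Figure D1:**
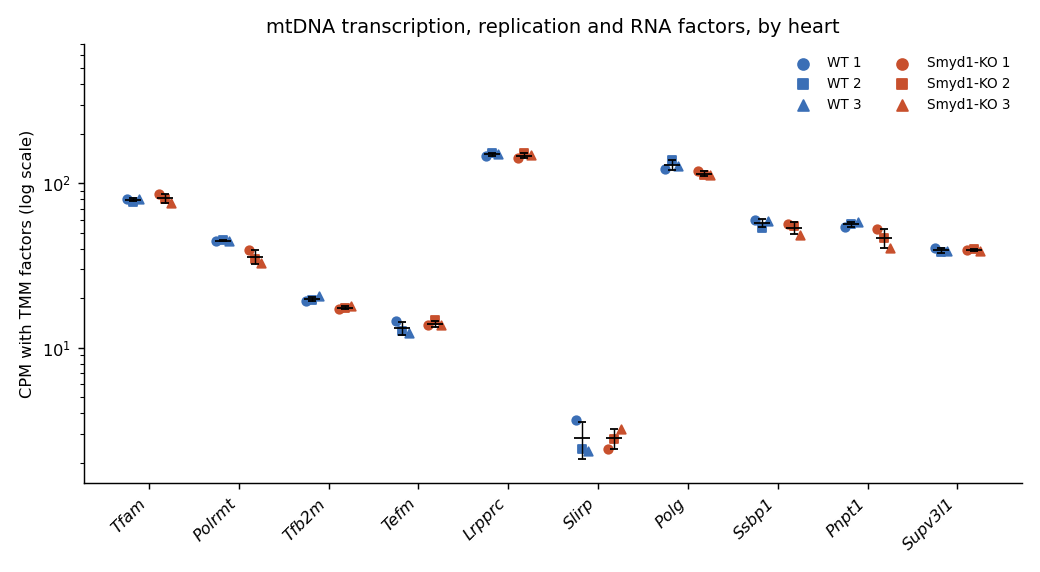
CPM of the 10 factors in each heart on a log scale, WT in blue and *Smyd1-KO* in red, with symbols for the replicate number and bars for the mean and SD of 3 hearts. The *Smyd1-KO* points lie below the WT points for *Polrmt*, *Tfb2m*, *Polg* and *Pnpt1*, and the genotypes overlap for the other 6.

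Among the transcription genes, *Tfam* (chr10:71225464-71238280, minus strand, mm10) encodes the HMG-box protein that both packs mtDNA into nucleoids and bends its promoters. It stood at 80.0, 77.2 and 80.0 CPM in WT hearts 1 to 3 and at 86.3, 80.0 and 76.1 CPM in *Smyd1-KO* hearts 1 to 3. The *Smyd1-KO* hearts held both the highest and the lowest value, and the log2 fold change was 0.03 (SE 0.07, 95% interval -0.14 to 0.21, edgeR adjusted *P* 0.831). A loss of *Tfam* message as large as 0.5 on the log2 scale lay outside that interval.

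*Polrmt* (chr10:79736123-79746581, minus strand), which encodes the polymerase, had the widest gap of the 10. The WT hearts were close together at 44.6, 44.9 and 44.6 CPM, and the *Smyd1-KO* hearts lay below them at 39.4, 34.6 and 32.9 CPM. The log2 fold change was -0.33 (SE 0.09, 95% interval -0.54 to -0.11), with an unadjusted *P* of 0.00812 and an edgeR adjusted *P* of 0.0812. *Smyd1-KO* heart 1, the heart with the fewest cardiomyocyte transcripts, was the highest of its group. Without it the log2 fold change was -0.40 and the edgeR adjusted *P* 0.0339, still short of the fold limit for a call, while the other alternatives gave adjusted *P*-values from 0.0587 to 0.240.

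*Tfb2m* (chr1:179528055-179546267, minus strand) encodes the factor that melts the mtDNA promoter with the polymerase. It was measured at 19.4, 19.5 and 20.5 CPM in WT and at 17.2, 17.5 and 17.9 CPM in *Smyd1-KO* hearts. The groups did not overlap, yet the log2 fold change of -0.18 (SE 0.09, interval -0.39 to 0.04) had an edgeR adjusted *P* of 0.287. Of its 75-base words, the stretches as long as a read, 29.6% also occur in the annotated transcript *Gm1818*, so part of its counts is uncertain.

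*Tefm* (chr11:80136678-80142175, minus strand) encodes the elongation factor. Its WT hearts had 14.6, 12.6 and 12.3 CPM, and its *Smyd1-KO* hearts had 13.7, 14.6 and 13.7 CPM, with overlap. The log2 fold change of 0.09 was the highest of the 10 (SE 0.12, interval -0.19 to 0.37, edgeR adjusted *P* 0.692).

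*Lrpprc* and *Slirp*, the mRNA-stability pair, did not differ by the test. *Lrpprc* (chr17:84705247-84790789, minus strand) encodes a pentatricopeptide-repeat protein that binds mitochondrial mRNAs and was measured at 147, 152 and 151 CPM in WT and at 142, 152 and 147 CPM in *Smyd1-KO* hearts. The hearts overlapped, and the log2 fold change was -0.03 (SE 0.07, interval -0.19 to 0.14, edgeR adjusted *P* 0.837). Its partner *Slirp* (chr12:87443896-87452206, plus strand), a small RNA-binding protein that LRPPRC stabilises, stood far lower, at 3.66, 2.44 and 2.37 CPM in WT and 2.43, 2.79 and 3.22 CPM in *Smyd1-KO* hearts. The log2 fold change of -0.00 carries a wide interval, -0.56 to 0.55 (edgeR adjusted *P* 0.993). Of the 75-base words of *Slirp*, 88.9% lie in transcripts of *Snw1* on the opposite strand, a gene looked up after the values were seen. The strand setting of the counting is not given in the sources used here, so it is not known whether reads shared with *Snw1* were counted for *Slirp*, and its level is uncertain.

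For replication, *Polg* (chr7:79446231-79466362, minus strand) encodes the catalytic subunit of the mtDNA polymerase. It had 122, 139 and 127 CPM in WT and 118, 112 and 113 CPM in *Smyd1-KO* hearts. The groups were apart by a small margin, with a log2 fold change of -0.17 (SE 0.08, interval -0.36 to 0.01, edgeR adjusted *P* 0.221). *Ssbp1* (chr6:40471352-40484700, plus strand), whose product coats single-stranded mtDNA, had 59.7, 53.7 and 59.2 CPM in WT and 56.7, 55.2 and 48.1 CPM in *Smyd1-KO* hearts. These overlapped, at a log2 fold change of -0.11 (SE 0.09, interval -0.32 to 0.10, edgeR adjusted *P* 0.497).

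For RNA decay, *Pnpt1* (chr11:29130744-29161828, plus strand) encodes polynucleotide phosphorylase, the 3′ to 5′ exonuclease of the mitochondrial degradosome. Its WT hearts had 54.3, 56.5 and 58.2 CPM, and its *Smyd1-KO* hearts had 52.7, 46.3 and 40.6 CPM. All *Smyd1-KO* hearts were lower, with heart 1 close to the WT range, and the log2 fold change was -0.28 (SE 0.11, interval -0.52 to -0.03, unadjusted *P* 0.0338, edgeR adjusted *P* 0.162). Over the alternatives the edgeR or DESeq2 adjusted *P* ran from 0.0536, without *Smyd1-KO* heart 1, to 0.351. *Supv3l1* (chr10:62429209-62449738, minus strand) encodes the helicase that feeds this nuclease. It showed the smallest spread of the decay pair, with 40.6, 37.9 and 38.9 CPM in WT, 39.4, 40.0 and 38.9 CPM in *Smyd1-KO* hearts, and a log2 fold change of 0.01 (SE 0.07, interval -0.16 to 0.18, edgeR adjusted *P* 0.951).

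Divided by exonic length, which makes levels comparable between genes, the WT order was *Tfam* at 17.8 ± 0.36 (SD, n = 3) CPM per kilobase, *Lrpprc* at 17.6 ± 0.34, *Pnpt1* at 16.03 ± 0.55, *Supv3l1* at 13.2 ± 0.45, *Polg* at 12.01 ± 0.82, *Polrmt* at 9.54 ± 0.03, *Tefm* at 8.40 ± 0.79, *Tfb2m* at 7.07 ± 0.23, *Ssbp1* at 6.88 ± 0.40 and *Slirp* at 0.910 ± 0.23 CPM per kilobase. Neighbours whose WT hearts overlapped were *Tfam* and *Lrpprc*, *Supv3l1* and *Polg*, and *Tfb2m* and *Ssbp1*. The length is the union of exons over all annotated isoforms, so a gene with long rare exons, such as *Ssbp1* with 8360 bases, is placed low. Apart from *Slirp*, the factors lay between 6.88 and 17.8 CPM per kilobase by this length, with the *Tfam* and *Lrpprc* messages at the top. The width of that band and the order within it depend on the length used, and lengths of the expressed isoforms were not tried.

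The mt- protein genes were lower in all 3 *Smyd1-KO* hearts than in any WT heart for 13 of 13 genes, against 31.3% of all genes without overlap in either direction. They took 1.29%, 1.11% and 1.13% of the counts in WT hearts and 0.719%, 0.652% and 0.581% in *Smyd1-KO* hearts. The means were 1.18% ± 0.099 and 0.651% ± 0.069 (SD, n = 3), a fold of 0.553, and the exact two-sided permutation test gave *P* = 0.1, the smallest that 3 against 3 hearts allow. Their log2 fold changes ran from -1.04 to -0.38 with a median of -0.88, against -0.07 for the factors. Of the 13 genes, 8 were called lower, against 1.42% of all tested genes, and 0 higher, and DESeq2 called 10 lower. The calls hang on single hearts: 1 gene was called without WT heart 2, 3 without *Smyd1-KO* heart 2 and 4 without WT heart 3, while the median log2 fold change lay between -0.93 and -0.77 whichever heart was left out. *mt-Nd4* was called in 6 of 6 such fits. In those fits fewer genes were called over the whole table as well, 97 in all without WT heart 2.

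**Figure D2:**
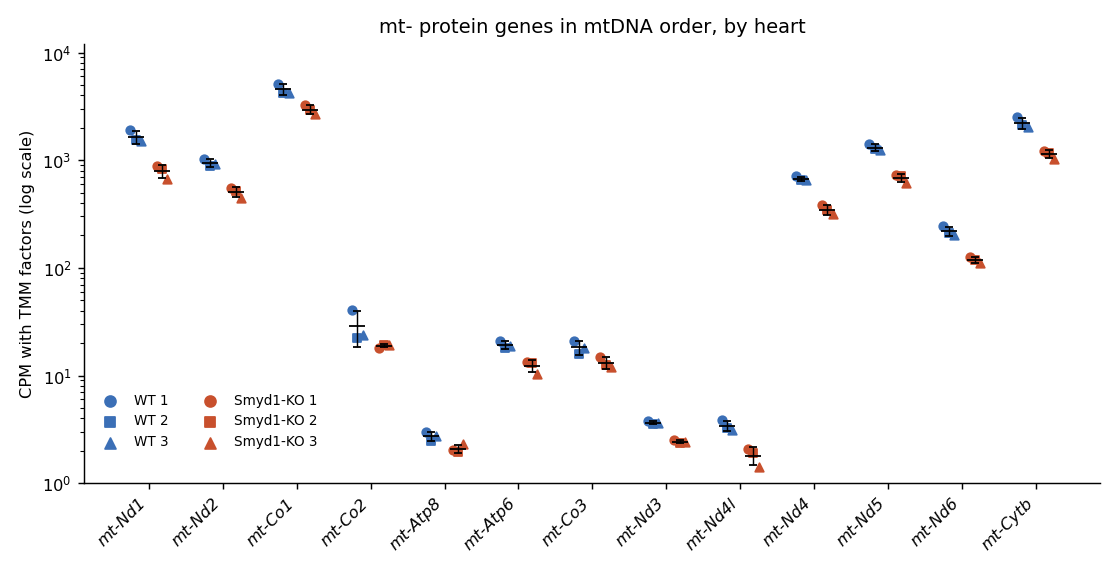
CPM of the 13 mt- protein genes in each heart on a log scale, in their order on mtDNA, with bars for the mean and SD of 3 hearts. Every *Smyd1-KO* point lies below every WT point of the same gene, and *mt-Co2* to *mt-Nd4l* lie far below their neighbours.

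The complex I gene *mt-Nd1* stood at 1904, 1525 and 1498 CPM in WT and at 887, 826 and 676 CPM in *Smyd1-KO* hearts (log2 fold change -1.04, SE 0.15, edgeR adjusted *P* 0.0136). *mt-Cytb*, the mitochondrially encoded subunit of complex III, stood at 2521, 2117 and 2035 CPM in WT and at 1216, 1169 and 1036 CPM in *Smyd1-KO* hearts (-0.96, SE 0.12, edgeR adjusted *P* 0.00961). *mt-Co1*, the catalytic subunit of complex IV, stood at 5149, 4222 and 4247 CPM in WT and at 3248, 2918 and 2691 CPM in *Smyd1-KO* hearts (-0.62, SE 0.13, edgeR adjusted *P* 0.0383). These and *mt-Nd2* (-0.90), *mt-Nd4* (-0.95), *mt-Nd5* (-0.93), *mt-Nd6* (-0.88) and the ATP synthase gene *mt-Atp6* (-0.64) were the 8 called. The other 5 had log2 fold changes of -0.92 for *mt-Nd4l*, -0.62 for *mt-Co2*, -0.58 for *mt-Nd3*, -0.47 for *mt-Co3* and -0.38 for *mt-Atp8*, with edgeR adjusted *P*-values from 0.0549 to 0.255. The value of *mt-Co2* rests on WT heart 1, which stood at 41.0 CPM against 22.2 and 23.7 CPM in the other WT hearts, and was -0.27 without it.

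For 6 mt- protein genes, *mt-Nd1*, *mt-Nd2*, *mt-Nd4*, *mt-Nd5*, *mt-Nd6* and *mt-Cytb*, the whole 95% interval of the log2 fold change lay below -0.56, the lowest bound reached by any of the 10 factors. A gap of the size seen in these mitochondrial messages was therefore outside the interval of each factor's own message. Of the factors, *Polrmt* came nearest, with a fold change of 0.797 against 0.485 for *mt-Nd1*. The level of a message does not give the amount or activity of the protein, which was not measured here.

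**Figure D3:**
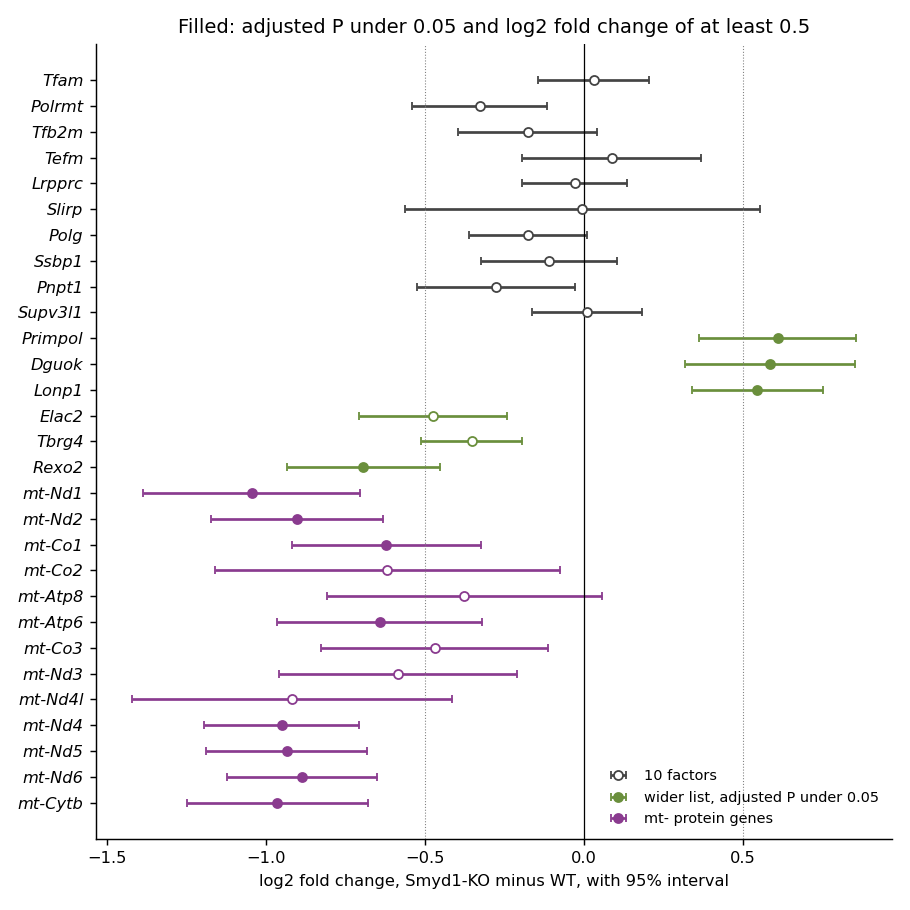
Log2 fold change, *Smyd1-KO* over WT, with its 95% interval for the 10 factors, for the genes of a wider list of mtDNA and mitochondrial RNA genes with an adjusted *P* under 0.05, and for the 13 mt- protein genes. Filled points were called, and dotted lines mark -0.5 and 0.5. No factor is filled, while 8 mt- protein genes are.

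The 2 strands of mtDNA are transcribed separately, and only *mt-Nd6* of the protein genes lies on the light strand. It fell by 0.88 on the log2 scale (244, 211 and 201 CPM in WT, 126, 118 and 111 CPM in *Smyd1-KO* hearts, edgeR adjusted *P* 0.00664), next to *mt-Nd5* on the heavy strand at -0.93 (adjusted *P* 0.00696). The ratio of *mt-Nd6* to *mt-Nd5* was 17.3%, 16.5% and 16.2% in WT and 17.3%, 16.5% and 18.1% in *Smyd1-KO* hearts, with overlap. Because the strand setting of the counting is not given in the sources used here, RNA of *mt-Nd6* and antisense RNA of that region cannot be told apart.

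The tRNAs of mtDNA, which were looked up after their values were seen, did not follow the protein genes as a group. Of 22, 8 had enough counts for a test, with 3 positive and 5 negative and a median log2 fold change of -0.55. DESeq2 called 3 of the tRNAs higher and 1 lower, against 8.99% of its genes in either direction. *mt-Tp*, the proline tRNA gene on the light strand, was called higher, with 17.8, 12.003 and 17.1 CPM in WT and 52.2, 46.3 and 41.3 CPM in *Smyd1-KO* hearts (log2 fold change 1.58, SE 0.17, edgeR adjusted *P* 0.00627). *mt-Tn* (1.23, adjusted *P* 0.0608) and *mt-Tc* (1.09, adjusted *P* 0.102), also on the light strand, did not overlap between genotypes and were not called by edgeR. Light-strand *mt-Te* (-1.71, edgeR adjusted *P* 0.101) and heavy-strand *mt-Tl1* (-1.57, edgeR adjusted *P* 0.0607) lay the other way, without overlap. *mt-Tl1* was near the floor, with 23, 25 and 24 counts in WT hearts 1 to 3 and 5, 11 and 5 in *Smyd1-KO* hearts 1 to 3. These genes are short and tRNAs carry no poly A tail, so their counts cover RNA captured at those positions and not mature tRNA.

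The ribosomal RNAs of mtDNA lie nearest the start of the heavy-strand transcript. *mt-Rnr1*, the small-subunit rRNA, had 181, 118 and 176 CPM in WT and 167, 167 and 176 CPM in *Smyd1-KO* hearts, with overlap and a log2 fold change of 0.10 (SE 0.16, interval -0.27 to 0.48, edgeR adjusted *P* 0.734). *mt-Rnr2*, the large-subunit rRNA, had 267, 216 and 244 CPM in WT and 156, 181 and 198 CPM in *Smyd1-KO* hearts, without overlap, at -0.44 (SE 0.12, edgeR adjusted *P* 0.0765). For 9 of the 13 mt- protein genes the whole interval lay below that of *mt-Rnr1*, and for 0 of 13 did it lie below that of *mt-Rnr2*, -0.72 to -0.16. rRNA without a long poly A tail is largely lost in oligo-dT selection, so these values cover the captured part only.

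Level and fold change of some mt- protein genes also rest on copies of mtDNA in the nucleus. A stretch of chromosome 1, at chr1:24611535-24616197, is annotated with near-identical copies, and reads that map to both places can be lost or split. The same-strand 75-base words shared with other transcripts came to 99.5% for *mt-Co2*, 99.5% for *mt-Atp6*, 99.9% for *mt-Co3*, 97.8% for *mt-Nd3* and 98.7% for *mt-Nd4l*. They came to 61.5% for *mt-Nd4*, 39.8% for *mt-Co1*, 5.71% for *mt-Nd2* and 1.66% for *mt-Nd5*, and none were found for *mt-Nd1*, *mt-Nd6*, *mt-Cytb* and *mt-Atp8*. The coding sequence of *mt-Atp6* is identical to the copy *Gm10925* over 678 bases, of which 60 are shown from both places, in mm10.
mt-Atp6, chrM:8237-8296, plus strand: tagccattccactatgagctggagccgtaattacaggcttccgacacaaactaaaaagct
Gm10925, chr1:24614282-24614341, minus strand: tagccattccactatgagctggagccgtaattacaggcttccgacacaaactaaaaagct
The genes with nearly all words shared were listed at low levels, with *mt-Co2* at 42.3, *mt-Atp6* at 28.3 and *mt-Co3* at 23.3 CPM per kilobase in WT, against 2938 for *mt-Co1*, 1944 for *mt-Cytb* and 1716 for *mt-Nd1*. *mt-Atp8*, with no shared words found, was lower still at 13.3 CPM per kilobase. The search covered annotated transcripts only. On mtDNA *mt-Atp8* begins between *mt-Co2* and *mt-Atp6*, and on chromosome 1 the copies of those 2 genes leave a stretch between them, from 24614651 to 24614885. A copy of *mt-Atp8* outside annotated transcripts would not have been found. The copies, which were looked up after their values were seen, carried counts too. *Gm10925* had 26.3, 20.4 and 23.7 CPM in WT hearts and a log2 fold change of -0.65 (edgeR adjusted *P* 0.0445), beside -0.64 for *mt-Atp6*. The copies ran from -1.06 for *Gm28439* (edgeR adjusted *P* 0.0128), beside -0.95 for *mt-Nd4*, to -0.21 for *Gm29216* (0.478), beside -0.62 for *mt-Co1*. *Gm10222*, *Gm28661*, *Gm28438* and *Gm28437* lay between these, with edgeR adjusted *P*-values from 0.0576 to 0.117. Over the 5 genes that share under 10% of their words, without *mt-Atp8*, the share of counts was lower by a fold of 0.499, which is further from 1 than the 0.553 of all 13.

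The mt- protein share was also set beside the cardiomyocyte markers, since cardiomyocytes are rich in mitochondria. The 10 markers had a median log2 fold change of -0.13, and their summed level had an exact permutation *P* of 0.5. Of them 0 were called by edgeR, against 4.28% of all tested genes, 0 by DESeq2, against 8.99% of its genes. At an unadjusted edgeR *P* under 0.05 there was 1, against 25.1%, so these counts are no more than the background. Of the 10, 8 were negative and 2 positive, from -0.71 for *Myh6* to 0.62 for *Myh7*, so the sum joins markers that moved in opposite directions. *Smyd1-KO* hearts 2 and 3 had marker RNA close to that of WT hearts 1 and 2, at 12722 and 12823 against 12879 and 13582 CPM, and lower mt- shares. *Smyd1-KO* heart 1 had the least marker RNA of the 6 hearts and the highest mt- share of its genotype, and without it the fold of the share was 0.524. The ratio of summed mt- protein CPM to summed marker CPM was 1.01, 0.807 and 1.26 in WT and 1.20, 0.523 and 0.463 in *Smyd1-KO* hearts, which overlapped (exact permutation *P* = 0.3, smallest possible 0.1). The ratio of *Smyd1-KO* heart 1 lay inside the WT range and those of hearts 2 and 3 lay below it. For the factors, the median over the 10 genes of the log2 level relative to the WT mean was -0.09, -0.04 and -0.10 in *Smyd1-KO* hearts 1 to 3 and between -0.03 and 0.01 in WT hearts.

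**Figure D4:**
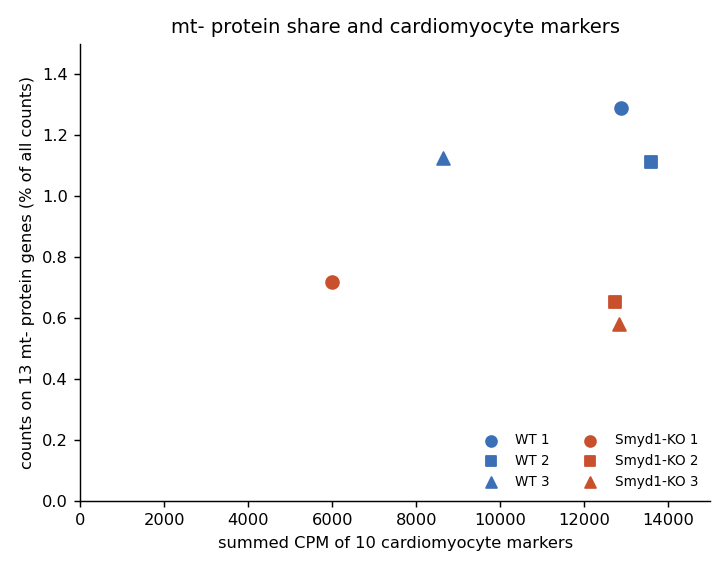
Share of all counts on the 13 mt- protein genes, in percent, against the summed CPM of 10 cardiomyocyte markers, with 1 point per heart. The *Smyd1-KO* hearts lie between 0.581% and 0.719% and the WT hearts between 1.11% and 1.29%. Only *Smyd1-KO* heart 1, at 5982 CPM, and WT heart 3, at 8641 CPM, have low marker levels. The part of cell content in the share was not tested.

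A wider list of 59 genes for mtDNA upkeep and mitochondrial RNA was tested around the 10 factors, and 59 of 59 passed the filter. Of these, 3 were called higher, against 2.86% of all tested genes, and 1 was called lower, against 1.42%. The list median was -0.06, with 26 genes positive and 33 negative, and 29 had no overlap between genotypes, 17 lower and 12 higher, against 31.3% of all tested genes in either direction. Since the list was chosen with earlier results known, these counts are a description. These 4 calls did not hold in every fit without 1 heart. None of the list was called without *Smyd1-KO* heart 2, *Smyd1-KO* heart 3, WT heart 2 or WT heart 3. Those fits called 248, 344, 97 and 171 genes over the whole table, against 830 with all hearts. Without WT heart 1, 2 of the list were called, and without *Smyd1-KO* heart 1, 6 were. DESeq2 called 4 of the list higher and 1 lower, against 8.99% of its genes in either direction.

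The RNA-decay gene *Rexo2* was the called gene that was lower. It encodes an oligoribonuclease that clears the short RNA fragments left by the degradosome, and it had 73.5, 64.6 and 61.04 CPM in WT and 45.2, 38.8 and 39.2 CPM in *Smyd1-KO* hearts (log2 fold change -0.69, SE 0.10, edgeR adjusted *P* 0.0158). *Lonp1*, the matrix protease known to degrade TFAM that is not bound to DNA, had 214, 208 and 202 CPM in WT and 278, 310.3 and 324 CPM in *Smyd1-KO* hearts (0.55, SE 0.09, edgeR adjusted *P* 0.0199). In the same hearts the *Tfam* message overlapped, as given above.

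The 2 other called genes serve mtDNA replication and its supply of nucleotides. *Primpol*, a primase-polymerase that restarts stalled forks in nucleus and mitochondria, had 11.2, 12.3 and 12.5 CPM in WT and 18.4, 18.3 and 18.3 CPM in *Smyd1-KO* hearts (0.61, SE 0.11, edgeR adjusted *P* 0.0238). Of its words, 14.2% lie in *Cenpu* transcripts on the opposite strand. *Dguok*, the mitochondrial deoxyguanosine kinase, had 16.6, 14.8 and 18.4 CPM in WT and 24.5, 24.0 and 26.2 CPM in *Smyd1-KO* hearts (0.59, SE 0.11, edgeR adjusted *P* 0.0337). The replication group held 14 genes, of which 2 were called higher, against 2.86% of all tested genes, and 0 lower, against 1.42%. The group was not tested, and its genes were chosen with earlier results known.

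In the group of 17 genes for RNA processing and modification 0 were called by edgeR or DESeq2, and 7 had an unadjusted edgeR *P* under 0.05, 5 of them lower, against 25.1% of all tested genes at that threshold in either direction. *Elac2*, the nuclease that trims the 3′ ends of tRNAs, had an adjusted *P* of 0.0413 by edgeR with a log2 fold change of -0.47, short of the fold limit, and *Mrm3*, an rRNA methyltransferase, had -0.48 (adjusted *P* 0.0569). *Pde12*, which removes A tails, had -0.39 (adjusted *P* 0.0761), and *Tfb1m*, an rRNA dimethyltransferase and relative of *Tfb2m*, had 0.37 (adjusted *P* 0.112). Of the 14 genes for RNA binding and decay, 1 was called lower, *Rexo2*, against 1.42% of all tested genes, and 12 of 14 had negative values, against 9731 of 19372, which was not tested for the group. Among them were *Tbrg4*, a FASTK-family RNA-binding protein, at -0.35 (edgeR adjusted *P* 0.0326), *Lactb2*, an RNA endonuclease, at -0.36 (0.0838), and *Fastkd1*, of the same family as *Tbrg4*, at -0.35 (0.131). Of the 8 genes for termination, nucleoids and turnover, 1 was called, *Lonp1*, which was higher, against 2.86% of all tested genes called higher.

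Of the 6 nuclear regulators of this machinery edgeR called 0, with 2 at an unadjusted *P* under 0.05, against 25.1% of all tested genes, and DESeq2 called 1, *Ppargc1b*. *Nrf1* had 60.9, 61.4 and 64.2 CPM in WT and 64.9, 59.1 and 52.9 CPM in *Smyd1-KO* hearts (log2 fold change -0.08, interval -0.29 to 0.14, edgeR adjusted *P* 0.645). *Gabpa*, the ETS-family factor also known as NRF2 alpha, had 86.5, 82.3 and 86.4 CPM in WT and 83.4, 91.2 and 85.9 CPM in *Smyd1-KO* hearts (0.03, interval -0.14 to 0.20, edgeR adjusted *P* 0.834). Both overlapped between genotypes. The co-activator gene *Ppargc1a* had 25.8, 24.4 and 18.8 CPM in WT and 11.2, 24.4 and 23.4 CPM in *Smyd1-KO* hearts (-0.22, interval -0.90 to 0.45, edgeR adjusted *P* 0.670), with the low value in *Smyd1-KO* heart 1. Its relative *Ppargc1b* had 12.6, 8.90 and 6.74 CPM in WT and 13.3, 17.2 and 19.6 CPM in *Smyd1-KO* hearts, without overlap (0.83, SE 0.25, edgeR adjusted *P* 0.101, DESeq2 adjusted *P* 0.0120).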

How the data were processed

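RNA of 3 *Smyd1-KO* and 3 WT hearts at E9.5 was compared, with genotype and replicate number taken from the sample labels. The authors ran paired-end reads of oligo-dT selected RNA through bcbio-nextgen, with STAR as aligner and mm10 as genome. The deposited raw table holds counts per gene without normalization. The deposited normalized table holds a signal per gene, the counts divided by 1 DESeq2 size factor per heart, and was used only to check those factors. The counting tool, annotation release and strand setting are not given in the sources used here.

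The genotypes were tested with edgeR 4.0.16 under R 4.3.3 (filterByExpr, TMM, quasi-likelihood test), and *P*-values of 19372 genes were adjusted by Benjamini-Hochberg. A gene was called where the adjusted *P* was under 0.05 and the log2 fold change was 0.5 or more in size, the thresholds of the study. The biological coefficient of variation was 22.5%. SEs are the log2 fold change over the square root of *F*. Total counts of 48627825 to 64217529 per heart leave the spread between hearts as the main error. Gene positions, exonic lengths and shared 75-base words came from the GENCODE annotation of GRCm38, in which 54495 table genes were found, and promoters from RefSeq (GRCm38.p6), in which 10 of 10 factors matched. A word counts as shared when it is identical in another annotated transcript. Plots were drawn in Python 3.11.15 with matplotlib 3.10.9, and the test was tried on simulated data.

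The members and gene lists were chosen with earlier results of these data known. The genes named are the 10 factors, the 13 mt- protein genes, the mitochondrial rRNAs, *Smyd1*, the called genes of the wider list with its next 8 by unadjusted *P*, and *Nrf1*, *Gabpa* and *Ppargc1a*. The mt- tRNA genes and the chromosome 1 copies were named after their values were seen. Alternatives were DESeq2 1.42.0, RLE factors, leaving out the mitochondrially encoded genes, factors from nuclear genes only, no filter or at least 10 counts in every heart, no fold limit, the replicate number as a block, leaving out each heart, and other denominators and members for the mt- share. The share over genes with under 10% shared words was added after the data had been seen. Other data types of the study were not analysed here.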

Additional observations from a re-analysis of the deposited data

How the results depend on the processing

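The factors had 0 calls under each of the alternatives, leaving out any 1 heart included. With the replicate number as a block, the mt- protein genes had 0 calls, the wider list 0 and all genes 59, of which 56 were higher and 3 lower, against 555 higher and 275 lower of 830 without it; the block changed no call among the factors. Hearts with the same number were different embryos, and their deviations had correlations of -0.22, -0.05 and -0.18 over genes, none of them positive. Litter and batch are not in the labels, so these values cannot decide whether the numbers pair hearts. The calls of the mt- protein genes and of the wider list therefore rest on a fit without the block. With the block the median log2 fold change of the mt- protein genes was -0.88. DESeq2 called 1748 genes over the whole table. Leaving out 1 heart gave 1 to 9 calls among the mt- protein genes, 0 to 6 in the wider list and 97 to 1256 over all genes. The fold of the mt- share lay between 0.524 and 0.583 in those fits and between 0.499 and 0.567 under other denominators or members. The sign turned only for uncalled factors near 0. *Tfam* was at -0.017 without *Smyd1-KO* heart 1, in a range up to 0.074 over the fits without 1 heart, and *Supv3l1* at -0.013 without WT heart 2, in a range up to 0.044. *Slirp* was at 0.0013 by DESeq2, 0.0012 with no filter and 0.017 with the block, and ran from -0.11 to 0.23 when a heart was left out. Of 286 single-gene values under the alternatives, 246 kept direction and side of the threshold, 28 lost and 4 gained a call, and 8 changed sign. The cause of these changes was not tested. Among the factors and mt- protein genes, depth limits those of lowest count most, *Slirp*, *mt-Atp8*, *mt-Nd3* and *mt-Nd4l*, with 81 to 240 counts per heart.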
